A study of Mus musculus with 14 samples.

Results

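The effect of a Western diet on wild-type visceral fat was measured by setting 3 arrays from mice on that diet against 3 from mice on normal diet, 6 of the 14 arrays of the study. The 6 were chosen by their labels, with no measured value used. All came from the epididymal fat pad, the visceral depot beside the testis, of male wild-type (WT) C57BL6/J mice. From the age of 8 weeks the mice ate 1 of the diets for 24 weeks: a normal diet, or a Western diet with 42% anhydrous milk fat, which the sample names shorten to HFD. The other 8 arrays came from male C57BL6/J mice labelled EKO, a name the sample descriptions pair with apolipoprotein E, with 4 arrays on each diet over the same weeks; they enter for the estimate of the spread and for 1 comparison. Total RNA of the whole pad was labelled for Affymetrix whole-transcript arrays, and 19937 genes with 1 probe set each were tested. Arrays are numbered by the replicate in their labels, so that normal array 1 is the first WT replicate on normal diet. The labels call the replicates biological and do not say whether animals were pooled, so a p value measures the spread between these samples.

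White fat stores triglyceride in adipocytes, which also take up glucose and branched-chain amino acids and secrete hormones such as leptin and adiponectin. The pad further holds macrophages, lymphocytes, progenitor cells and vessels, and a layer of mesothelium covers it. In obese mice, macrophages are known to gather around dying adipocytes, where they fuse, take up lipid and break it down in lysosomes. In bulk tissue, fewer cells of a type and less RNA per cell cannot be told apart.

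Adipocyte markers were bright. Mean levels over the 21 measured adipocyte genes ran from 12.81 to 12.88 on normal diet and 12.57 to 12.67 on Western diet (log2 RMA values), against a background of 6.29 to 6.84 per array, taken as the mean of olfactory and vomeronasal receptor rows. Of 21 genes of epididymis and testis, 11 lay at or below the highest background on both diets. Arrays of the same WT diet group correlated at 0.976 to 0.989. Normal array 1 and Western array 1 had the higher background (6.76 and 6.83), while the other 4 WT arrays lay between 6.35 and 6.48; each diet thus holds 1 such array. Apoe itself, which the labels tie to the genotype of the other mice, gave 13.14, 13.61 and 13.46 on normal diet and 13.13, 13.41 and 13.65 on Western diet, so that diet did not separate the WT arrays at this gene (-0.01 ± 0.17, adjusted p = 0.993).

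On Western diet 636 genes were higher and 458 lower in WT fat, 1094 of 19937 genes or 5.49% (3.19% higher and 2.3% lower; limma, Benjamini-Hochberg adjusted p under 0.05, two-sided). The rises were larger than the falls. The middle of the risen genes lay at a log2 fold change of 0.74 (quartiles 0.56 and 1.07) and that of the fallen genes at -0.60 (quartiles -0.81 and -0.48). At least a doubling (log2 of 1 or more) was seen for 187 genes, and a fall of that size for 68. Brightness went with the direction: in the dimmest quartile of genes 74 rose and 8 fell, while in the brightest 200 rose and 236 fell. The arrays of both diets did not overlap at 20.0% of all genes (8.77% higher and 11.3% lower on Western diet), and at 1086 of the 1094 that passed. With each array centred on its median, 573 genes were higher and 247 lower, which moves the higher share of the calls from 58.1% to 69.9%. With the array background as a block the counts were 1063 higher and 944 lower, and with only the arrays of lower background 1322 and 830. The total was 415 without Western array 3, 527 without normal array 3, 528 without normal array 2 and 584 without Western array 2. It was 1048 without normal array 1 and 1514 without Western array 1, the arrays of higher background.

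**Figure D1:**
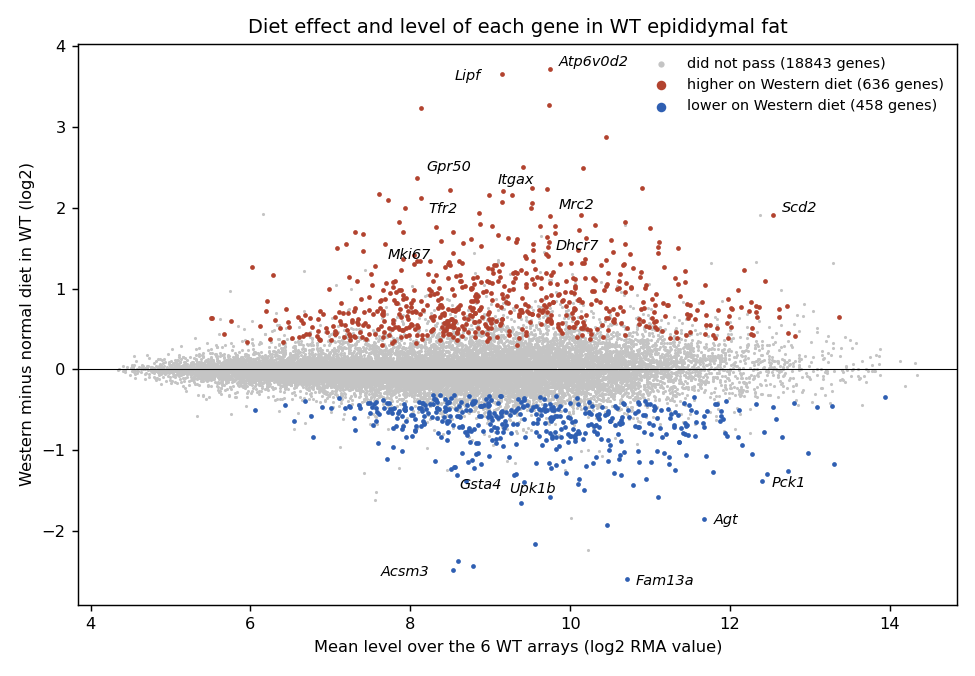
Each point is 1 of the 19937 genes; the horizontal axis is its mean log2 RMA value over the 6 WT arrays and the vertical axis the log2 difference between Western and normal diet. The 636 risen genes reach 3.71 (Atp6v0d2) and the 458 fallen genes -2.59 (Fam13a).

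The 30 genes with the largest rise included receptors, enzymes and adaptors of several kinds. Tfr2, a transferrin receptor best known from liver, had values of 7.04, 7.10 and 7.08 on normal diet and 9.09, 9.05 and 9.42 on Western diet (log2 fold change 2.11 ± 0.12, adjusted p = 5.33e-07). The 3 normal-diet values lay within a narrow band and every Western value far above it. Mrc2, an endocytic receptor that binds collagen, stood at 8.92, 8.62 and 8.86 on normal diet and 10.56, 10.74 and 10.78 on Western diet (1.89 ± 0.12, adjusted p = 1.84e-06). Tm4sf19, a membrane protein of the tetraspan L6 family, was measured at 8.196, 7.79 and 8.17 on normal diet and 10.14, 10.05 and 10.60 on Western diet (2.21 ± 0.21, adjusted p = 6.32e-05). In these genes the lowest Western array exceeded the highest normal array by more than the range within either diet. Il7r, the interleukin 7 receptor chain, rose by 2.22 ± 0.21, and Oxtr, the oxytocin receptor, by 1.91 ± 0.35. The values of Oxtr were 9.88, 8.66 and 8.999 on normal diet and 10.77, 11.01 and 11.49 on Western diet. Scd2, a fatty acid desaturase, was bright on both diets, at 12.35, 10.80 and 11.60 on normal diet and 13.30, 13.56 and 13.61 on Western diet (1.91 ± 0.36, adjusted p = 0.00663). Mtarc1, a reductase of the mitochondrial outer membrane, rose by 1.82 ± 0.33 and Ncan, which codes for the proteoglycan neurocan, by 2.06 ± 0.23. Tnip3, an inhibitor of NF-kappaB signalling, rose by 1.99 ± 0.25, the ubiquitin ligase gene Rnf128 by 1.82 ± 0.23 and Glipr1 by 1.79 ± 0.19. For Stap1, an adaptor of immune cells, and Hephl1, a multicopper ferroxidase, normal-diet means lay at the background, and the rises were at least 3.6-fold and at least 3.8-fold. Each of the 13 genes also passed with any 1 WT array left out.

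The largest falls included enzymes of lipid and detoxification pathways. Gsta4, a glutathione transferase for products of lipid peroxidation, had values of 9.90, 10.41 and 10.05 on normal diet and 8.62, 8.81 and 8.76 on Western diet (log2 fold change -1.39 ± 0.18, adjusted p = 0.000628). Eci3, an enoyl-CoA isomerase, was at 8.95, 9.22 and 9.27 on normal diet and 7.76, 8.05 and 8.02 on Western diet (-1.204 ± 0.13, adjusted p = 0.00013). For both genes the diets were separated by more than 3 times the largest SD of either group. Mogat1, which makes diacylglycerol from monoacylglycerol, fell by 1.38 on the log2 scale and Ces1d, a triglyceride hydrolase, by 1.29. C2, a complement protease, went from 11.28 ± 0.30 to 9.98 ± 0.15 (SD, n = 3 each; -1.30 ± 0.18, adjusted p = 0.000958). The transcription factor gene Zbtb16 fell (-1.24 ± 0.20), as did Chst1, a sulfotransferase (-1.28 ± 0.16), B3galt2, a galactosyltransferase (-1.26 ± 0.19), and Steap2, a metalloreductase (-1.22 ± 0.16). Dtna, which codes for a dystrobrevin (-1.203 ± 0.16), Wnt2b, a Wnt ligand (-1.28 ± 0.25), Zfp185 (-1.29 ± 0.26) and Ano1, a chloride channel (-1.22 ± 0.24), fell too. Nnat, an imprinted membrane proteolipid, was bright on both diets at 13.42, 13.05 and 13.59 on normal diet and 12.90, 11.78 and 11.61 on Western diet (-1.25 ± 0.26, adjusted p = 0.0122); Western array 1 lay closest to the normal arrays. The matrix protease gene Mmp9 (-1.31 ± 0.22), the sialyltransferase gene St6galnac5 (-1.23 ± 0.26), the glutamate transporter gene Slc1a3 (-1.35 ± 0.31) and Pkhd1l1 (-1.35 ± 0.28) fell as well. The call of Ano1 ended without normal array 3 (adjusted p up to 0.0506). For Nnat, the call ended when normal array 3 or Western arrays 2, 3 was left out (adjusted p up to 0.0762). St6galnac5 did not pass without normal arrays 2, 3 or Western array 3 (adjusted p up to 0.0535). The call of Slc1a3 ended without normal arrays 2, 3 or Western arrays 2, 3 (adjusted p up to 0.0942). For Pkhd1l1, the call ended when normal array 3 or Western array 3 was left out (adjusted p up to 0.0724).

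At the head of the falls stood Fam13a, a gene tied to fat distribution in people, at 11.60, 12.36 and 12.07 on normal diet and 10.21, 9.08 and 8.95 on Western diet (-2.59 ± 0.44, adjusted p = 0.0033). Dennd2d, which codes for a DENN domain protein, was 9.79, 10.08 and 10.13 on normal diet and 7.54, 7.69 and 7.47 on Western diet (-2.43 ± 0.24, adjusted p = 6.61e-05), and Adgrg2, an adhesion receptor known from the epididymis, 10.58, 10.56 and 10.75 on normal diet and 8.68, 8.37 and 8.396 on Western diet (-2.15 ± 0.17, adjusted p = 1.18e-05). For Dennd2d and Adgrg2 the arrays of each diet formed tight sets. Agt, angiotensinogen, the precursor of angiotensin, was 12.31, 12.86 and 12.64 on normal diet and 10.92, 10.48 and 10.87 on Western diet (-1.84 ± 0.19, adjusted p = 0.000127), and Tst, a sulfur transferase of mitochondria, 9.26, 10.99 and 10.39 on normal diet and 8.65, 8.63 and 8.39 on Western diet (-1.65 ± 0.41, adjusted p = 0.0311). Slc43a1, a transporter of branched-chain amino acids among others, fell (-1.58 ± 0.37), as did Rnf144b, a ubiquitin ligase (-1.49 ± 0.20), and Acsm3, an acyl-CoA synthetase (-2.48 ± 0.54). Of the rises at the head, Lctl, a lactase-like protein, was 9.21, 8.52 and 9.32 on normal diet and 11.61, 11.91 and 12.13 on Western diet (2.87 ± 0.32, adjusted p = 0.00023), Mmp12, the macrophage elastase, 9.49, 8.01 and 9.24 on normal diet and 11.59, 11.35 and 11.27 on Western diet (2.49 ± 0.48, adjusted p = 0.00741) and Saa3, serum amyloid A3, 8.61, 8.19 and 8.96 on normal diet and 10.37, 11.21 and 10.89 on Western diet (2.23 ± 0.32, adjusted p = 0.00115). Cdkl4, a kinase gene, had normal-diet values at the background and rose at least 7.49-fold. The calls of Tst and Slc43a1 ended without normal arrays 2, 3 or Western arrays 2, 3 (adjusted p up to, in this order, 0.148 and 0.106). For Acsm3, the call ended when normal arrays 2, 3 or Western array 3 was left out (adjusted p up to 0.0739).

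Genes that mark macrophages rose. Lists may share members, and each member is counted in every list that holds it. Of 24 macrophage identity genes 13 rose and 1, the clearance receptor gene Mertk (-0.77 ± 0.16), fell (median log2 fold change 0.85, against -0.02 over all genes), and of 23 genes of lipid-associated and fusing macrophages 14 rose and 1, the phosphatase gene Acp5 (-0.51 ± 0.12), fell (median 0.58). None of 17 resident macrophage genes passed by limma (median -0.21). At an unadjusted p under 0.05 there were 3 of them, beside 3378 of all 19937 genes. Itgax, the CD11c integrin of inflammatory macrophages, was 8.05, 7.72 and 7.95 on normal diet and 9.89, 10.05 and 10.23 on Western diet (2.15 ± 0.17, adjusted p = 1.09e-05). All 3 Western values lay above the highest normal value. Cd68, a lysosomal membrane protein of macrophages, was 10.21, 10.20 and 10.55 on normal diet and 11.66, 11.76 and 12.25 on Western diet (1.57 ± 0.26, adjusted p = 0.00277), and Adgre1, the F4/80 antigen, was 9.68, 9.67 and 9.97 on normal diet and 10.88, 11.10 and 11.39 on Western diet (1.35 ± 0.26, adjusted p = 0.00746). Both were separated by diet, with Western array 1 the lowest of the Western arrays. Trem2, a lipid-sensing receptor, rose by 1.31 ± 0.24, Lgals3, the lectin galectin 3, by 1.497 ± 0.20 and Ctsk, cathepsin K, by 1.22 ± 0.19. Csf1r, the receptor for the macrophage growth factor CSF1, had a log2 fold change of 0.54 ± 0.21, adjusted p = 0.182, and Cd163, the haptoglobin-haemoglobin receptor of resident cells, -0.24 ± 0.17, adjusted p = 0.571. Leaving out 1 WT array gave 7 to 16 risen identity genes (7 without Western array 3) and 10 to 13 risen lipid-associated genes. The call of Mertk ended without normal array 3 or Western arrays 2, 3 (adjusted p up to 0.0771). For Acp5, the call ended when normal arrays 2, 3 or Western arrays 2, 3 was left out (adjusted p up to 0.118). Adgre1 did not pass without Western array 3 (adjusted p up to 0.0504).

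**Figure D2:**
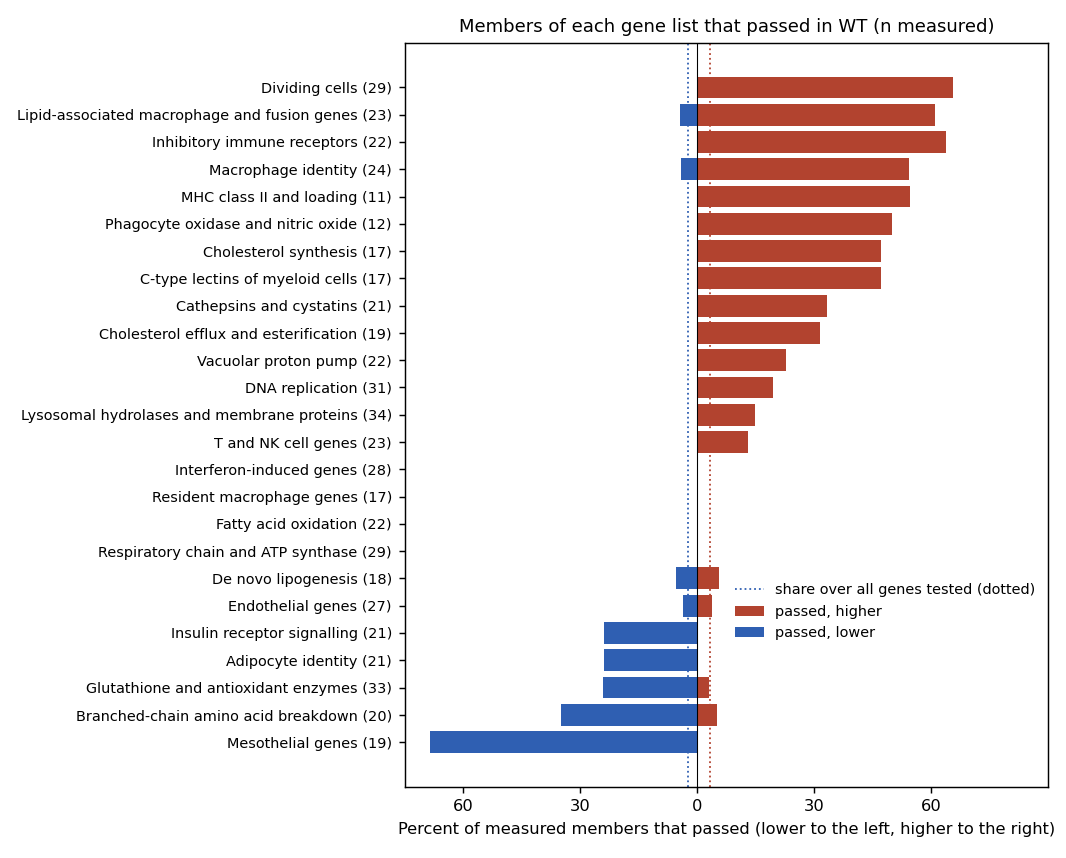
Bars give the percent of measured members (number in brackets) of 25 gene lists that passed as higher (right) or lower (left) on Western diet in WT; dotted lines mark the shares over all genes, 3.19% and 2.3%. The macrophage identity, lysosome, cholesterol and division lists have most of their calls to the right, mesothelial and amino acid lists to the left, and interferon, resident macrophage, fatty acid oxidation and respiratory chain lists have no bar.

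Some innate receptors of myeloid cells rose. Of 17 C-type lectins, which bind glycans, dying cells or microbes, 8 rose: Clec12a, an inhibitory receptor, was 8.00, 8.23 and 8.37 on normal diet and 9.81, 10.46 and 10.80 on Western diet (2.16 ± 0.32, adjusted p = 0.00146). Clec7a, the beta-glucan receptor Dectin-1, rose by 1.27 ± 0.22, and the neighbouring family members Clec4a3 and Clec4a2 by 1.40 ± 0.27 and 1.36 ± 0.17. Clec4e, the receptor Mincle, had 0.47 ± 0.13, adjusted p = 0.0603, and Clec4n, Dectin-2, had a normal-diet mean at the background and did not pass (adjusted p = 0.521). Among 19 Toll-like receptor and adaptor genes 4 rose. Tlr13, a sensor of bacterial ribosomal RNA, was 7.92, 7.87 and 8.53 on normal diet and 9.68, 10.24 and 10.62 on Western diet (2.07 ± 0.27, adjusted p = 0.000628), and Tlr8 rose by 1.77 ± 0.31. The surface receptor gene Tlr1 rose by 1.08 ± 0.19, while Tlr4, the lipopolysaccharide receptor, had 0.08 ± 0.19, adjusted p = 0.954 and Tlr2 0.24 ± 0.09, adjusted p = 0.169. Of 10 Fc receptor genes 4 rose, led by Fcgr4, an activating IgG receptor (7.11, 6.97 and 7.10 on normal diet and 8.30, 8.57 and 9.41 on Western diet; 1.70 ± 0.27, adjusted p = 0.0021). The inhibitory IgG receptor gene Fcgr2b stood at 0.59 ± 0.20, adjusted p = 0.112. Without 1 WT array, the range was 5 to 9 risen lectins (5 without normal array 2 or Western arrays 2 or 3) and 1 to 4 risen Fc receptor genes (1 without normal array 2 or Western array 3, 2 without normal arrays 1 or 3).

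Of 22 genes in a list named for inhibitory immune receptors 14 rose and none fell (median 0.79). Not every member of that list is purely inhibitory. Slamf7, a receptor of the SLAM family, was 8.13, 7.71 and 7.79 on normal diet and 9.25, 9.24 and 9.81 on Western diet (1.56 ± 0.18, adjusted p = 0.00023). Cd200r1, the receptor for CD200, rose by 1.28 ± 0.18 and Cd300ld by 1.64 ± 0.32. Havcr2, which codes for TIM-3, rose by 0.70 ± 0.09, and Sirpa, the receptor for CD47, by 0.80 ± 0.18. The membrane-spanning genes Ms4a6d (1.47 ± 0.27), Ms4a7 (1.30 ± 0.20) and Ms4a6c (1.05 ± 0.17) were among 5 of 16 in their family that rose. Genes of the Clec4a, Ms4a and Cd300 families are close copies of each other, and probe sets for 1 copy may take up signal of another. Of 12 genes of oxidase and nitric oxide synthesis 6 rose. The phagocyte oxidase, which makes superoxide, rose in its membrane subunit genes Cybb (1.13 to 1.40 without 1 WT array) and Cyba (0.998 ± 0.21). Its regulatory gene Ncf4 rose too (0.62 ± 0.15). Nos2 and Arg1, often used as markers of opposed macrophage states, had 0.09 ± 0.11, adjusted p = 0.822 and 0.20 ± 0.13, adjusted p = 0.54. With 1 WT array left out at a time, the count was 11 to 15 risen genes of the inhibitory receptor list, 3 to 5 risen Ms4a genes (3 without normal array 2) and 0 to 4 risen oxidase genes (0 without Western array 3, 1 without normal arrays 1, 2 or 3, 2 without Western array 2). The calls of Cd300ld and Cyba ended without Western array 3 (adjusted p up to, in this order, 0.0501 and 0.063). For Sirpa, the call ended when normal array 2 or Western arrays 2, 3 was left out (adjusted p up to 0.0927). Ncf4 and Cybb did not pass without normal arrays 1, 2, 3 or Western arrays 2, 3 (adjusted p up to, in this order, 0.142 and 0.122).

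Of 30 chemokine ligands 3 rose and 1 fell, and 2 of 20 genes listed as chemokine receptors rose. Over all genes 3.19% rose and 2.3% fell. The 2 receptor genes were Ccr2 and C5ar1, a complement receptor that this list also holds. Ccr2 did not pass without normal array 2 or Western arrays 2, 3 (adjusted p up to 0.0602). Ccl9 was 10.67, 10.20 and 10.43 on normal diet and 11.55, 11.44 and 11.43 on Western diet (1.04 ± 0.19, adjusted p = 0.00546) and Ccl3 rose by 1.34 ± 0.23. Ccl2, which draws monocytes into tissue, was 8.91, 9.88 and 8.89 on normal diet and 9.46, 10.34 and 10.51 on Western diet; the diets overlapped and it did not pass (0.87 ± 0.29, adjusted p = 0.105). Tnf, the cytokine long tied to obese fat, had 0.37 ± 0.11, adjusted p = 0.0563, and Il6 lay at the background on both diets (means 5.04 and 5.01). Of 31 interleukin and receptor genes 4 rose, and these were Il7r, the decoy ligand gene Il1rn (0.99 ± 0.14), the receptor gene Il10ra (0.97 ± 0.21) and Csf2ra (0.68 ± 0.14). The TNF superfamily held 2 risen genes among 34, beside 3.19% of all genes; they were the death receptor genes Tnfrsf21 (0.99 ± 0.18) and Tnfrsf10b (0.64 ± 0.17). No interferon-induced gene of 28 passed by limma (median 0.18). With an unadjusted p under 0.05 there were 5, beside 3378 of all 19937 genes. After 1 WT array was removed there were 2 to 6 risen chemokine ligands (6 without Western array 1). The chemokine receptor list then held 0 to 4 risen genes (0 without normal array 2 or Western array 3, 1 without Western array 2, 4 without normal array 1). There were 2 to 5 risen interleukin and receptor genes (2 without normal array 2 or Western array 3). For the TNF superfamily the count was 1 to 5 risen genes (1 without normal arrays 1, 2 or 3 or Western arrays 2 or 3, 5 without Western array 1). The calls of Il10ra and Csf2ra ended without normal array 2 or Western array 3 (adjusted p up to, in this order, 0.0866 and 0.0761). For Tnfrsf10b, the call ended when normal arrays 1, 2, 3 or Western arrays 2, 3 was left out (adjusted p up to 0.201).

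Of 23 T and NK cell genes 3 rose, beside 3.19% of all genes: Cd3e, a chain of the T cell receptor complex (0.40 ± 0.11), Il2rb, an interleukin 2 receptor chain (0.56 ± 0.15), and Klrd1, the CD94 receptor, from background on normal diet (at least 1.27-fold). Of 17 monocyte and dendritic cell genes 4 rose. None of 16 B and plasma cell genes or of 15 mast cell and eosinophil genes passed by limma. In these 2 lists 2 and 3 genes had an unadjusted p under 0.05, beside 3378 of all 19937 genes. Clec9a, a receptor of cross-presenting dendritic cells, rose by 0.73 ± 0.12 and Irf8, a transcription factor of monocytes and dendritic cells, by 1.25 ± 0.29. Among 15 neutrophil genes S100a8 rose (0.57 ± 0.14) while Prtn3 (-0.51 ± 0.13) and Mmp9 fell, and 5 of the list lay at the background on both diets. Genes of MHC class II and of its loading, with Ctss and Ifi30 among the latter, rose in 6 of 11 (median 0.68): Ifi30, a lysosomal thiol reductase that unfolds antigens, was 9.84, 9.92 and 9.88 on normal diet and 10.87, 10.88 and 11.48 on Western diet (1.197 ± 0.18, adjusted p = 0.00178), and Ciita, the activator of the class II genes, rose by 0.49 ± 0.11. The class II chain gene H2-Ab1 rose too, but its call ended when any 1 WT array was left out (adjusted p up to 0.16). That of Cd74, another risen member, ended without normal arrays 2, 3 or Western arrays 2, 3 (adjusted p up to 0.136). Class I genes rose in 2 of 13. Of 23 complement genes 4 rose, among them C1qb (0.78 ± 0.19) and Itgax, the integrin of complement receptor 4. C3ar1, the receptor for the C3a fragment, was 10.38, 9.99 and 10.63 on normal diet and 11.69, 11.82 and 12.06 on Western diet (1.52 ± 0.21, adjusted p = 0.000967), C5ar1 rose by 0.92 ± 0.19, and C2 fell as given with the largest falls. Of 19 acute phase protein genes 2 rose and 1 fell. Beside Saa3, Orm2 and Orm3 went in opposite directions, at 1.08 ± 0.19, adjusted p = 0.00434 and -0.89 ± 0.23, adjusted p = 0.0382; they are near-identical copies, so their separate values are uncertain. Leaving out 1 WT array gave 0 to 5 risen T and NK cell genes (0 without normal arrays 2 or 3 or Western arrays 1 or 3, 1 without normal array 1, 5 without Western array 2), 1 to 6 risen monocyte and dendritic cell genes (1 without normal array 2 or Western array 3, 2 without Western array 2), 2 to 5 risen class II genes (2 without normal arrays 2 or 3 or Western arrays 2 or 3, 3 without normal array 1), 0 to 3 risen class I genes (0 without normal array 3 or Western arrays 2 or 3, 1 without normal arrays 1 or 2) and 2 to 7 risen complement genes (2 without normal array 2 or Western array 3, 7 without Western array 1). In the arrays of lower background 0 T and NK cell genes passed. The calls of Cd3e, Il2rb and Orm3 ended without normal arrays 1, 2, 3 or Western arrays 1, 3 (adjusted p up to, in this order, 0.201, 0.192 and 0.161). For Klrd1, the call ended when normal arrays 2, 3 or Western arrays 1, 3 was left out (adjusted p up to 0.113). Irf8 and C1qb did not pass without normal arrays 1, 2 or Western arrays 2, 3 (adjusted p up to, in this order, 0.129 and 0.153). The calls of S100a8 and Ciita ended without normal arrays 1, 2, 3 or Western arrays 2, 3 (adjusted p up to, in this order, 0.125 and 0.0942). For Prtn3, the call ended when normal arrays 2, 3 or Western arrays 2, 3 was left out (adjusted p up to 0.183). C5ar1 did not pass without normal array 2 or Western array 3 (adjusted p up to 0.0802).

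Lysosomal genes rose in part. Cathepsins are the proteases of lysosomes, and 7 of 21 genes of cathepsins and their cystatin inhibitors rose, all of them proteases. Lgmn, legumain, which activates other cathepsins, was 10.71, 10.78 and 10.97 on normal diet and 11.66, 11.84 and 12.14 on Western diet (1.06 ± 0.19, adjusted p = 0.00516). Of the 22 genes of the proton pump that acidifies lysosomes 5 rose: Atp6v0d2 was 8.07, 7.42 and 8.202 on normal diet and 11.40, 11.54 and 11.87 on Western diet (3.71 ± 0.46, adjusted p = 0.000508), and Tcirg1, the pump's a3 subunit in osteoclasts and macrophages, rose by 0.58 ± 0.12. Atp6v0d1, the widely used counterpart of Atp6v0d2, had 0.23 ± 0.12, adjusted p = 0.361. Among 34 hydrolases and membrane proteins 5 rose and 30 had values above 0 (median 0.22); Gla, alpha-galactosidase, was 8.79, 8.60 and 8.85 on normal diet and 9.28, 9.43 and 9.83 on Western diet (0.77 ± 0.12, adjusted p = 0.00226), and Lipa, the lysosomal acid lipase, rose by 1.09 ± 0.13. Lamp1, an abundant protein of the lysosomal membrane, had 0.11 ± 0.10, adjusted p = 0.741 and Tfeb, a regulator of lysosomal genes, 0.13 ± 0.12, adjusted p = 0.738. In iron and heme handling 3 of 25 rose and 1 fell (16.0%, beside 5.49% of all genes). Beside Tfr2, Hmox1, which breaks down heme, was 9.35, 9.49 and 9.52 on normal diet and 9.89, 10.55 and 10.79 on Western diet (0.95 ± 0.21, adjusted p = 0.0158), while Tfrc, the common transferrin receptor, had -0.13 ± 0.26, adjusted p = 0.938. The macrophage identity list rose in the same arrays, with mean levels of 9.62 to 9.81 on normal diet and 10.30 to 10.65 on Western diet, and its part in the lysosomal values was not tested. Without 1 WT array, the range was 4 to 7 risen cathepsin genes (4 without normal array 3 or Western array 3), 1 to 5 proton pump genes (1 without Western arrays 2 or 3, 2 without normal array 2, 3 without normal array 1), 4 to 8 hydrolase and membrane genes (8 without Western array 1) and 1 to 4 risen iron and heme genes (1 without normal array 2 or Western array 3). The call of Tcirg1 ended without Western arrays 2, 3 (adjusted p up to 0.0586). For Hmox1, the call ended when normal array 2 or Western arrays 2, 3 was left out (adjusted p up to 0.0977).

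The promoters of lysosomal genes are known to hold an E-box motif bound by TFEB and its relatives. Within the 250 bases before the RefSeq starts (GRCm38.p6), TCACGTGA, which reads the same on both strands, was found for 1.25% of 15613 tested genes, for 2 of 16 cathepsin and cystatin genes with an entry, for 1 of 16 proton pump genes and for 2 of 31 hydrolase and membrane genes. Ctsd, cathepsin D, is shown as a risen gene (0.65 ± 0.14, adjusted p = 0.0126) that has it: the 200 bases before its start, chr7:142387828-142388027, minus strand, carry the motif in capitals. In macrophage identity genes GAGGAAGT, a motif of the macrophage factor PU.1, was searched on both strands and found for 0 of 16 with an entry, against 2.59% of all. The call of Ctsd ended without normal array 3 or Western arrays 2, 3 (adjusted p up to 0.0795).
Ctsd: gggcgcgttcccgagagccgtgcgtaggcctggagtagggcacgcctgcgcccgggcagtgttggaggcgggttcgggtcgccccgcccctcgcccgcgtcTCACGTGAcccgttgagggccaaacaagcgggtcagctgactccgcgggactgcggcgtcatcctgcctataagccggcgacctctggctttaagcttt

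Genes of dividing cells rose in 19 of 29, and all 29 had values above 0 (median 0.55). Of the 29, 26 were higher with no overlap of the diets, against 8.77% of all genes. On both diets 5 of the 29 lay at or below the highest background. Mki67, the marker of cycling cells, was 7.72, 7.83 and 7.93 on normal diet and 8.84, 9.29 and 9.32 on Western diet (1.32 ± 0.12, adjusted p = 6.03e-05). Top2a, the topoisomerase of mitotic chromosomes, was 6.86, 6.93 and 6.96 on normal diet and 7.502, 8.38 and 8.42 on Western diet (1.19 ± 0.20, adjusted p = 0.00295), while a dimmer probe set of the gene (mean level 5.05) had -0.03. Ccnb2, a mitotic cyclin, rose by 1.17 ± 0.18 and Cdk1, its kinase partner, by 0.97 ± 0.19. In each of these the Western arrays 2 and 3 lay above Western array 1. DNA replication genes rose in 6 of 31 (median 0.32), and Rrm2, the regulated subunit of ribonucleotide reductase, was 7.12, 7.28 and 7.34 on normal diet and 7.68, 8.09 and 8.59 on Western diet (0.87 ± 0.16, adjusted p = 0.00536). The helicase subunit genes Mcm6 and Mcm5 rose by 0.60 ± 0.16 and 0.52 ± 0.13. With 1 WT array left out at a time, the count was 10 to 21 risen genes of dividing cells (10 without Western array 3, 11 without normal array 3, 12 without Western array 2) and 1 to 12 of DNA replication (1 without normal arrays 2 or 3 or Western arrays 2 or 3, 12 without Western array 1). The call of Mcm6 ended without normal arrays 1, 2, 3 or Western arrays 2, 3 (adjusted p up to 0.216). For Mcm5, the call ended when normal arrays 2, 3 or Western arrays 2, 3 was left out (adjusted p up to 0.108).

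Promoters of mitotic genes are known to pair CCAAT boxes, bound by NF-Y, with a cell-cycle element, TTTGAA. Both were searched on either strand in the 250 bases before each RefSeq start (GRCm38.p6). Of the 25 measured genes of dividing cells with an entry, 19 held CCAAT and 8 held TTTGAA (14 and 7 of the 15 risen ones), against 38.8% and 15.7% of all tested genes with an entry; genes with several starts had more bases searched. Mki67 (chr7:135716380-135716579, minus strand) and Cdk1 (chr10:69352913-69353112, minus strand) are shown since both hold both motifs within 200 bases of the start. Capitals mark CCAAT, its reverse complement ATTGG, and TTTGAA.
Mki67: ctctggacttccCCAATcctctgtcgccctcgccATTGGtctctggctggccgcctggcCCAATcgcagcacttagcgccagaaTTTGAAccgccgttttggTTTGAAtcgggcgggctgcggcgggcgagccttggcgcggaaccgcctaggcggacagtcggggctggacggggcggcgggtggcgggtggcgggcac
Cdk1: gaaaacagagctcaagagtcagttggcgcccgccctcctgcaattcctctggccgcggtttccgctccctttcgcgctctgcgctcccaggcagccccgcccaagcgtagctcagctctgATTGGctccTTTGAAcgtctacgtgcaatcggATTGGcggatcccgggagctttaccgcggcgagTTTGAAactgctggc

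Genes of cholesterol synthesis rose. Of 17 enzymes 8 rose, 16 had values above 0 and the median was 0.78. Early in the pathway, Fdps, which makes farnesyl pyrophosphate, was 9.57, 9.80 and 9.13 on normal diet and 10.27, 11.10 and 11.23 on Western diet (1.37 ± 0.24, adjusted p = 0.00444), whereas Hmgcs1, an enzyme near the start, had 0.68 ± 0.30, adjusted p = 0.258. Fdft1, the enzyme that commits farnesyl pyrophosphate to sterols, was the 1 member below 0, with -0.28 ± 0.15, adjusted p = 0.413. Late in the pathway, Lss, which closes the sterol rings, was 8.92, 8.95 and 8.90 on normal diet and 9.82, 11.00 and 11.25 on Western diet (1.77 ± 0.32, adjusted p = 0.00471) and Dhcr7 was 9.09, 8.83 and 9.03 on normal diet and 9.71, 10.60 and 10.94 on Western diet (1.43 ± 0.24, adjusted p = 0.00294). Western array 1 was the lowest of the Western arrays in all 3 genes. Over the list, mean levels were 9.47 to 9.61 on normal diet and 9.85 to 10.77 on Western diet. Of 11 genes that control the pathway or take up lipoproteins 1 passed (9.09%, beside 5.49% of all genes), Sort1, a sorting receptor, which fell (-0.43 ± 0.11). Insig1, which holds back the pathway and is itself raised with it, was 11.16, 12.26 and 11.57 on normal diet and 12.27, 13.32 and 13.37 on Western diet and did not pass (1.33 ± 0.51, adjusted p = 0.176), and Srebf2, its main transcription factor, had -0.07 ± 0.17, adjusted p = 0.954. Of 19 genes of efflux and esterification 6 rose: Pltp, a phospholipid transfer protein, was 11.73, 11.27 and 11.67 on normal diet and 12.67, 12.63 and 13.05 on Western diet (1.23 ± 0.17, adjusted p = 0.00103) and Abcg1, a sterol exporter, rose by 1.13 ± 0.25, while Abca1, the other main exporter, had -0.13 ± 0.11, adjusted p = 0.673. Leaving out 1 WT array gave 3 to 13 risen synthesis genes (3 without Western array 3, 4 without normal array 2 or Western array 2, 5 without normal array 3, 13 without Western array 1) and 4 to 5 risen efflux genes; with only the arrays of lower background the count for synthesis was 15. The call of Sort1 ended without normal arrays 2, 3 or Western arrays 1, 3 (adjusted p up to 0.138). For Abcg1, the call ended when normal arrays 2, 3 or Western array 3 was left out (adjusted p up to 0.0925).

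SREBP2, the factor that drives these enzymes, is known to act with NF-Y at CCAAT boxes. Of 14 measured synthesis genes with a RefSeq promoter entry 14 held CCAAT on either strand in the 250 bases before a start, 6 of them risen, against 38.8% of all tested genes; this search of the cholesterol genes was added after the one in mitotic genes. The sterol element TCACNCCAC (N, any base) was found for 1 of 14, against 1.2% of all, and for 0 of the 6 risen ones. The genes with the largest rises, Lss (chr10:76531405-76531604, plus strand) and Dhcr7 (chr7:143830014-143830213, plus strand), are shown with CCAAT or ATTGG in capitals.
Lss: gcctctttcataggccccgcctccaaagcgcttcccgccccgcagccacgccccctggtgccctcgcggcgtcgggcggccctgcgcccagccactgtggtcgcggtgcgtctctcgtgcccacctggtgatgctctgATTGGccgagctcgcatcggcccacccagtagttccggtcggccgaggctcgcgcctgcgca
Dhcr7: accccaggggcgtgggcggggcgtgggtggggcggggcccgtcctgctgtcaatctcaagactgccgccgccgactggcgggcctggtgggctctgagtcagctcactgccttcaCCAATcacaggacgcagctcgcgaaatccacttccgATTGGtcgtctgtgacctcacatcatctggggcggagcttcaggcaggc

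**Figure D3:**
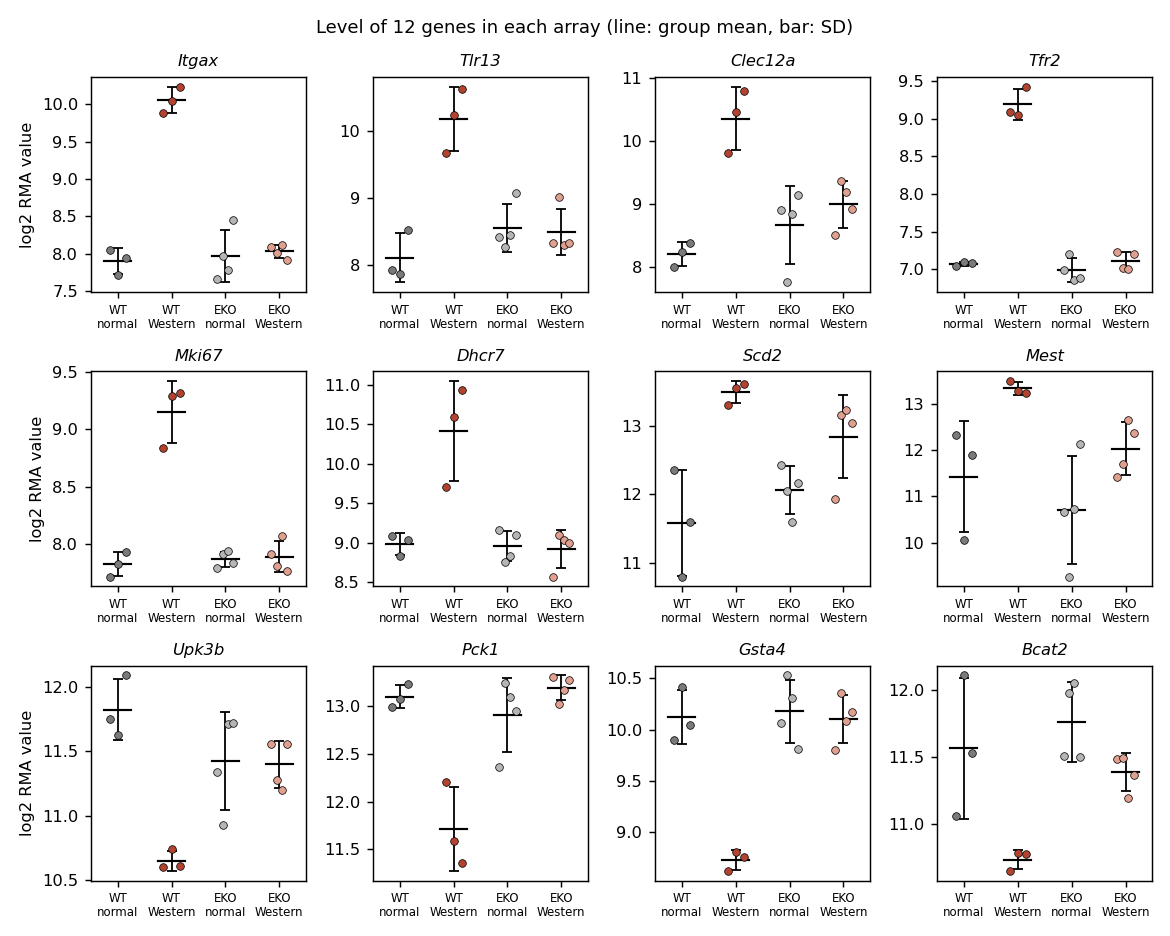
Points are single arrays, lines group means and bars SD (log2 RMA values) for 12 genes in the 3 WT and 4 EKO arrays of each diet. In each panel the WT arrays on Western diet lie apart from the WT arrays on normal diet; the normal-diet arrays of Scd2, Mest and Bcat2 are widely spread.

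Genes of fatty acid and triglyceride metabolism passed in small numbers, to be read beside 3.19% of all genes that rose and 2.3% that fell. Of 18 lipogenic genes 1 rose, the desaturase gene Scd2, and 1 fell, Mlxipl, which codes for the glucose-responsive factor ChREBP and was 10.17, 10.58 and 10.67 on normal diet and 9.45, 9.81 and 9.75 on Western diet (-0.80 ± 0.20, adjusted p = 0.031). Fasn, fatty acid synthase, had 0.00 ± 0.22, adjusted p = 0.999, and Scd1, the main desaturase of fat, 0.08 ± 0.08, adjusted p = 0.816. In triglyceride synthesis 2 of 14 fell, Mogat1 (9.42, 9.74 and 9.01 on normal diet and 8.09, 7.88 and 8.05 on Western diet) and Gpat4 (-0.61 ± 0.16), while Dgat2, which makes the final ester bond, had 0.17 ± 0.19, adjusted p = 0.818. Among 19 lipid droplet and lipolysis genes 1 rose and 1 fell (Pde3b). Plin2, the droplet coat of macrophages and other cells, was 11.91, 11.87 and 11.90 on normal diet and 12.81, 12.95 and 13.20 on Western diet (1.09 ± 0.13, adjusted p = 0.000329), and Plin1, the coat of adipocyte droplets, had -0.12 ± 0.08, adjusted p = 0.492. In uptake and activation 1 of 21 genes rose and 3 fell. Fabp5, the fatty acid binding protein of macrophages and skin, rose by 1.14 ± 0.25, and the acyl-CoA synthetase genes Acsm5 and Acss3 fell (-1.03 ± 0.23 and -0.80 ± 0.15), as did Acsm3. Lpl, which frees fatty acids from lipoproteins, and Cd36, which takes them up, had -0.01 ± 0.08, adjusted p = 0.983 and -0.02 ± 0.09, adjusted p = 0.976. By limma no gene of fatty acid oxidation passed (22 measured, median -0.09), nor of the respiratory chain and ATP synthase (29 measured, median -0.15). At an unadjusted p under 0.05 there were 6 and 4, beside 3378 of all 19937 genes. Of the respiratory genes 24 had values below 0; list means were 11.04 to 11.51 on normal diet and 10.84 to 11.23 on Western diet, and the diets overlapped. The calls of Mlxipl and Gpat4 ended without normal arrays 2, 3 or Western arrays 1, 2, 3 (adjusted p up to, in this order, 0.135 and 0.175). For Fabp5, the call ended when normal array 3 or Western arrays 2, 3 was left out (adjusted p up to 0.093). Acsm5 did not pass without normal arrays 2, 3 or Western arrays 2, 3 (adjusted p up to 0.0909).

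The adipocyte genes that passed were lower on Western diet. Of 21 adipocyte identity genes 5 fell and 0 rose (median -0.12). Adipoq, the adiponectin gene, was 13.48, 13.48 and 13.53 on normal diet and 13.20, 13.10 and 12.84 on Western diet (-0.45 ± 0.09, adjusted p = 0.0101), so each Western array lay below each normal array. Lep, the leptin gene, was 12.72, 12.30 and 12.53 on normal diet and 13.21, 13.47 and 13.31 on Western diet; its arrays did not overlap, yet it did not pass (0.81 ± 0.27, adjusted p = 0.115). Mest, an imprinted gene raised when fat expands, was 12.32, 10.06 and 11.89 on normal diet and 13.49, 13.27 and 13.23 on Western diet; normal array 2 was far below the other normal arrays, and the gene did not pass (1.91 ± 0.61, adjusted p = 0.0915). Sfrp5, a secreted Wnt antagonist often raised along with Mest, did not pass either (11.36, 7.84 and 10.18 on normal diet and 11.96, 11.27 and 11.49 on Western diet; 1.78 ± 0.89, adjusted p = 0.341). Of 22 transcription factors of fat 5 fell and 0 rose; Wt1, 1 of these, is also a mesothelial gene. Ebf2, a factor of progenitors and brown fat, was 10.04, 10.32 and 10.34 on normal diet and 9.47, 9.33 and 9.40 on Western diet (-0.84 ± 0.15, adjusted p = 0.0039), Ebf1 fell by 0.62 on the log2 scale, and Pparg, the master regulator, had -0.08 ± 0.12, adjusted p = 0.911. Insulin signalling genes fell in 5 of 21. Irs1, the main docking protein of the receptor, was 10.11, 10.96 and 10.36 on normal diet and 9.50, 9.24 and 9.30 on Western diet (-1.13 ± 0.22, adjusted p = 0.00795), Pde3b, which carries insulin's brake on lipolysis, fell (-0.79 ± 0.12), and Akt2, the kinase further down, had 0.16 ± 0.12, adjusted p = 0.645. Of 14 genes of glyceroneogenesis and glycerol handling 3 fell. Pck1, the enzyme of glyceroneogenesis, was 12.98, 13.07 and 13.22 on normal diet and 12.20, 11.59 and 11.35 on Western diet (-1.38 ± 0.22, adjusted p = 0.00194), while Gpd2, the mitochondrial glycerol phosphate dehydrogenase (-1.10 ± 0.27), and Ldhb, a lactate dehydrogenase subunit (-0.78 ± 0.13), were the others. The glucose transporter gene Slc2a3 fell by 1.05 on the log2 scale and Slc2a4, the insulin-responsive transporter, by 0.60; of the 21 glucose genes Hk3, a hexokinase, also passed, as a rise (0.43 ± 0.09). Without 1 WT array, the range was 2 to 5 fallen identity genes (2 without Western array 3, 3 without normal arrays 2 or 3), 2 to 5 fallen transcription factor genes (2 without normal array 2 or Western arrays 2 or 3, 3 without normal array 3), 3 to 4 fallen insulin genes (3 without normal arrays 2 or 3 or Western array 3) and 0 to 4 risen glucose genes (0 without Western array 3, 4 without Western array 1). With each array centred on its median, 3 identity, 2 transcription factor and 3 insulin genes fell. The calls of Adipoq and Hk3 ended without Western array 3 (adjusted p up to, in this order, 0.0534 and 0.0757). For Gpd2, the call ended when normal arrays 2, 3 or Western arrays 1, 2, 3 was left out (adjusted p up to 0.117). Slc2a4 did not pass without normal arrays 2, 3 or Western array 3 (adjusted p up to 0.0874).

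Of 17 genes of hormones made by fat 3 fell and none rose: Adipoq, Retn, which codes for resistin (14.02, 14.21 and 14.09 on normal diet and 13.75, 13.89 and 13.68 on Western diet; -0.34 ± 0.09, adjusted p = 0.0366), and Nrg4, a neuregulin (-0.51 ± 0.14). Of the 17, however, 10 had values above 0 (median 0.30). At an unadjusted p under 0.05 by limma 6 were higher and 4 lower, beside 1700 and 1678 of all 19937 genes. Among 16 genes listed for expanding adipocytes 2 passed, Nnat and Fam13a, and both fell, while 9 of the 16 had values above 0 (median 0.22). Of 21 genes of sphingolipid metabolism 2 fell (9.52%, beside 5.49% of all genes that passed), Kdsr, an early reductase of synthesis (-0.50 ± 0.11), and Smpd3, a neutral sphingomyelinase (-0.66 ± 0.18). The 26 genes of the unfolded protein and integrated stress responses held 2 rises, Sdf2l1 of the endoplasmic reticulum (0.78 ± 0.14) and Atf3, and 1 fall, Asns, asparagine synthetase (-0.83 ± 0.11). Other stress genes of that list, such as Hspa5, the chaperone BiP, and Ddit3, the factor CHOP, had 0.35 ± 0.14, adjusted p = 0.204 and 0.16 ± 0.08, adjusted p = 0.374. With any 1 WT array removed there were 0 to 2 fallen hormone genes (0 without Western array 3, 1 without normal array 3) and 1 to 3 genes of the expanding list (1 without normal array 3 or Western arrays 2 or 3). The call of Retn ended without normal arrays 2, 3 or Western arrays 1, 3 (adjusted p up to 0.176). For Nrg4, the call ended when normal arrays 1, 2, 3 or Western arrays 2, 3 was left out (adjusted p up to 0.211). Kdsr did not pass without normal array 2 or Western array 2 (adjusted p up to 0.0754). The call of Smpd3 ended without normal arrays 2, 3 or Western arrays 1, 2, 3 (adjusted p up to 0.198).

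Breakdown of branched-chain amino acids, a pathway that fat runs at high rates, fell in 7 of 20 genes and rose in 1 (median -0.49); 12 members were lower with no overlap of the diets, against 11.3% of all genes. Aldh6a1, a dehydrogenase of the valine branch, was 12.25, 12.71 and 12.56 on normal diet and 11.73, 11.61 and 11.70 on Western diet (-0.83 ± 0.13, adjusted p = 0.00234). Dbt, a core subunit of the branched-chain keto acid dehydrogenase, was 11.19, 11.44 and 11.61 on normal diet and 10.60, 10.61 and 10.65 on Western diet (-0.79 ± 0.12, adjusted p = 0.00164), and Ivd, of the leucine branch, fell (-0.81 ± 0.15). Both enzymes that start the pathway passed in opposite directions: the mitochondrial Bcat2 was 11.06, 12.11 and 11.53 on normal diet and 10.65, 10.78 and 10.78 on Western diet (-0.83 ± 0.21, adjusted p = 0.0348) and the cytosolic Bcat1 8.41, 8.19 and 8.39 on normal diet and 8.95, 8.88 and 9.70 on Western diet (0.85 ± 0.18, adjusted p = 0.0118). Glutathione and antioxidant genes fell in 8 of 33 and rose in 1. The fallen members were transferases and 1 peroxidase: Gstt1 was 11.01, 11.04 and 11.44 on normal diet and 10.15, 10.09 and 9.96 on Western diet (-1.10 ± 0.13, adjusted p = 0.00047) and Gpx3, the secreted glutathione peroxidase, 12.99, 12.43 and 12.95 on normal diet and 11.99, 11.74 and 11.52 on Western diet (-1.04 ± 0.17, adjusted p = 0.00273). Gclc, the rate-limiting enzyme of glutathione synthesis, had -0.22 ± 0.13, adjusted p = 0.464, and Sod2, the superoxide dismutase of mitochondria, rose by 0.64 ± 0.15. Of 17 carboxylesterase genes Ces1d (13.06, 13.23 and 13.02 on normal diet and 12.16, 11.63 and 11.64 on Western diet) and Ces1f (-1.92 ± 0.30) fell, and Aadac, a related deacetylase, rose from background on normal diet (at least 1.06-fold); this family is made of close copies that probe sets may not fully separate. Otop1, an ion channel gene listed with brown fat genes, rose (1.53 ± 0.15), while Ucp1, the heat-producing carrier, lay at the background on both diets. Of 18 brown and beige fat genes Otop1 and Ebf2 were those that passed (11.1%, beside 5.49% of all genes). With each array centred on its median, 5 branched-chain and 6 glutathione genes fell. The macrophage identity list was higher and the mesothelial list lower in the same arrays, and their part in these falls was not tested. With 1 WT array left out at a time, the count was 4 to 8 fallen branched-chain genes (4 without normal array 2 or Western array 3) and 5 to 8 fallen glutathione genes (5 without normal array 2 or Western array 3). The call of Bcat2 ended without normal arrays 2, 3 or Western arrays 1, 2, 3 (adjusted p up to 0.146). For Bcat1, the call ended when normal array 2 was left out (adjusted p up to 0.0579). Sod2 did not pass without normal array 3 or Western arrays 2, 3 (adjusted p up to 0.12). The call of Aadac ended without normal arrays 1, 2, 3 or Western arrays 1, 3 (adjusted p up to 0.133).

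Genes of the mesothelium fell in 13 of 19, and 18 were lower with no overlap, against 11.3% of all genes (median -0.82). Upk3b, a uroplakin of mesothelium, was 11.75, 11.63 and 12.09 on normal diet and 10.60, 10.74 and 10.61 on Western diet (-1.17 ± 0.19, adjusted p = 0.00213), and Lrrn4 was 10.66, 10.64 and 11.29 on normal diet and 9.78, 9.75 and 9.57 on Western diet (-1.16 ± 0.22, adjusted p = 0.0067). Krt19, a keratin, fell (-1.17 ± 0.19), while Msln, mesothelin, had -0.57 ± 0.21, adjusted p = 0.158. List means were 9.74 to 10.13 on normal diet and 9.10 to 9.16 on Western diet, with normal array 3 the highest. With each array centred on its median, 11 mesothelial genes fell. Of 27 endothelial genes 1 rose and 1 fell, beside 5.49% of all genes. Vcam1, which tethers leukocytes, rose (0.59 ± 0.15, adjusted p = 0.0376) and Thbd, thrombomodulin, fell (11.43, 12.05 and 12.16 on normal diet and 10.07, 10.46 and 10.40 on Western diet; -1.57 ± 0.29, adjusted p = 0.00569), while Pecam1, the pan-endothelial marker, had -0.10 ± 0.14, adjusted p = 0.869. Among 21 progenitor and stromal genes Fap, a membrane protease, passed (0.56 ± 0.15), and among 15 smooth muscle and pericyte genes Myh11, smooth muscle myosin, which fell (-0.78 ± 0.19); as shares these are 4.76% and 6.67%, near the 5.49% of all genes that passed. Pdgfra, the marker of progenitors, had -0.34 ± 0.22, adjusted p = 0.519. Of collagen genes 1 of 29 passed, or 3.45%: Col12a1 of the fibril-associated class (8.27, 7.78 and 7.91 on normal diet and 9.06, 9.32 and 9.53 on Western diet; 1.32 ± 0.18, adjusted p = 0.000967), while Col1a1, the main fibril chain, had 0.34 ± 0.11, adjusted p = 0.086 and Col6a3, the chain that yields endotrophin, 0.53 ± 0.16, adjusted p = 0.067. Proteases and inhibitors that act on matrix rose in 5 of 30 and fell in 1, Mmp9. Timp1 was 8.03, 7.52 and 8.11 on normal diet and 8.997, 9.93 and 10.53 on Western diet (1.93 ± 0.29, adjusted p = 0.00165) and Adam8, a membrane protease of myeloid cells, rose by 1.67 ± 0.18. Of 26 lysyl oxidase and matricellular genes 3 rose and 2 fell. The crosslinking enzyme gene Lox rose by 1.02 ± 0.25 and the proteoglycan gene Lum by 1.13 ± 0.28, while Fmod, another such proteoglycan, fell (-0.89 ± 0.18). In the TGF-beta superfamily 4 of 35 fell, Acvr1c, the receptor ALK7 of adipocytes, the most (11.36, 11.997 and 11.98 on normal diet and 10.59, 10.74 and 10.77 on Western diet; -1.08 ± 0.17, adjusted p = 0.00227), and Gdf3, a ligand of that receptor, rose (0.76 ± 0.16). Leaving out 1 WT array gave 6 to 13 fallen mesothelial genes (6 without normal array 3, 8 without Western array 3), 1 to 4 fallen TGF-beta superfamily genes (1 without normal array 3 or Western array 2, 2 without normal array 2 or Western array 3), 0 to 3 risen (0 without normal array 2 or Western arrays 2 or 3, 1 without normal array 1) and 0 to 2 fallen matricellular genes (0 without normal array 3 or Western array 3, 1 without normal array 2 or Western arrays 1 or 2), 1 to 4 risen collagen genes (4 without Western array 1) and 0 to 3 fallen smooth muscle genes (0 without normal arrays 2 or 3 or Western arrays 2 or 3, 3 without normal array 1). With arrays centred, 1 TGF-beta superfamily gene fell. The call of Vcam1 ended without normal arrays 1, 2, 3 or Western arrays 1, 2, 3 (adjusted p up to 0.139). For Fap, Lox and Lum, the calls ended when normal arrays 1, 2 or Western arrays 2, 3 was left out (adjusted p up to, in this order, 0.199, 0.138 and 0.147). Myh11 did not pass without normal arrays 2, 3 or Western arrays 2, 3 (adjusted p up to 0.112). The call of Fmod ended without normal array 3 or Western array 3 (adjusted p up to 0.059). For Gdf3, the call ended when normal array 3 was left out (adjusted p up to 0.0503).

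Genes best known from other tissues rose singly. Lipf, gastric lipase, was 8.34, 6.41 and 7.21 on normal diet and 11.12, 10.83 and 10.95 on Western diet (3.65 ± 0.47, adjusted p = 0.000628), and of the other 18 pancreas, stomach and salivary genes 1 rose, Cela1 (0.56 ± 0.10), and 1 fell. Sycp3, of the meiotic chromosome axis, was 8.65, 7.56 and 8.25 on normal diet and 10.76, 10.61 and 10.61 on Western diet (2.51 ± 0.44, adjusted p = 0.00405), and it was the 1 gene of 21 of the epididymis and testis list to pass (4.76%, near the 5.49% of all genes). Slc5a7, the choline transporter of nerve endings, was 8.81, 7.08 and 8.399 on normal diet and 11.09, 11.51 and 11.50 on Western diet, and Gpr50, an orphan receptor of the brain, was 7.09, 6.78 and 6.83 on normal diet and 10.01, 8.07 and 9.71 on Western diet. For both, each Western array lay above every normal array, and for Gpr50 Western array 2 was the lowest of them. Of the 18 genes of nerve and Schwann cells these and Prune2 (2.24 ± 0.35) rose, and Scn7a, a sodium channel of Schwann cells, fell (-0.93 ± 0.12, adjusted p = 0.000571). Muscle genes passed in 2 of 15 (13.3%, beside 5.49% of all genes), Casq1 (0.82 ± 0.13) and Pvalb, from background on normal diet (at least 1.55-fold), while Ckm, muscle creatine kinase, had -0.07 ± 0.15, adjusted p = 0.946. No clock gene of 17 passed by limma (4 at an unadjusted p under 0.05, beside 3378 of all 19937 genes). Immediate early and heat shock genes, known to respond to handling, passed in 3 of 22 (13.6%). Egr1, an early response factor, was 8.72, 11.76 and 9.20 on normal diet and 8.43, 8.80 and 8.97 on Western diet (-1.16 ± 0.55, adjusted p = 0.306), and normal array 2 was the highest of the 6. Atf3, a stress factor, rose (8.36, 9.32 and 8.63 on normal diet and 9.83, 9.81 and 10.37 on Western diet; 1.23 ± 0.23, adjusted p = 0.00655). Any 1 WT array removed left 1 to 3 genes of that list (1 without normal array 3 or Western arrays 2 or 3). The call of Pvalb ended without Western array 3 (adjusted p up to 0.062).

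The Western arrays differed among themselves. As deviations of a list's mean from its mean over the 6 WT arrays (log2), the macrophage identity list stood at -0.46, -0.46 and -0.27 on normal diet and 0.22, 0.41 and 0.57 on Western diet, and cholesterol synthesis at -0.46, -0.35 and -0.50 on normal diet and -0.12, 0.63 and 0.80 on Western diet. Western array 1 was thus above the normal arrays in macrophage genes and nearer to them in cholesterol genes. In genes of dividing cells the deviations were -0.31, -0.33 and -0.29 on normal diet and 0.02, 0.41 and 0.51 on Western diet, with the same order of the Western arrays. The mesothelial list did not follow this order, at 0.28, 0.23 and 0.62 on normal diet and -0.36, -0.35 and -0.42 on Western diet. Western array 1 had the higher background; with the arrays of lower background alone, 15 cholesterol and 20 division genes passed as higher, and with a fit on only the 6 WT arrays 4 and 4. Normal array 2 stood apart in the immediate early list, at -0.30, 0.76 and -0.19 on normal diet and -0.23, -0.08 and 0.04 on Western diet, and was also the highest in the branched-chain list, at 0.00, 0.43 and 0.19 on normal diet and -0.35, -0.21 and -0.06 on Western diet.

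**Figure D4:**
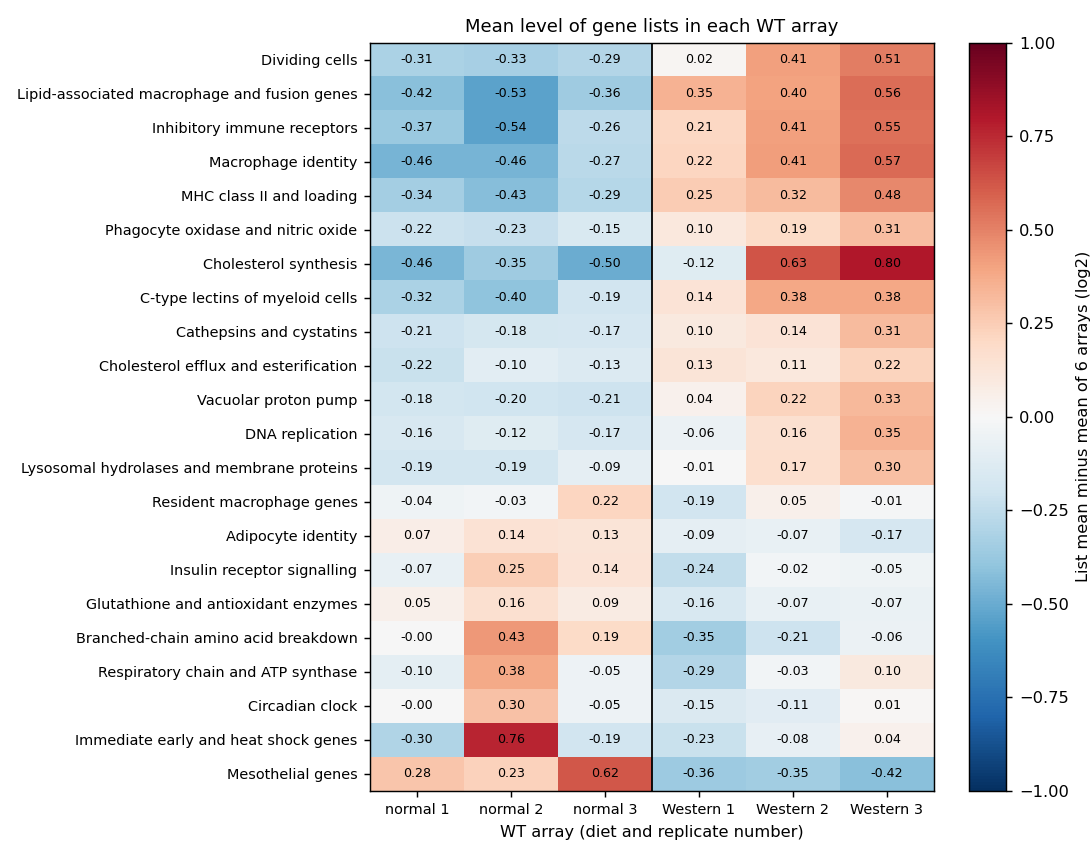
Rows are gene lists, columns the 6 WT arrays; colour and number give the list's mean log2 value minus its mean over the 6 arrays. The macrophage identity, lipid-associated macrophage, cathepsin, proton pump and division lists are below 0 in the 3 normal arrays, the cholesterol list is at -0.12 in Western array 1 and at 0.80 in Western array 3, and normal array 2 is at 0.76 in the immediate early and heat shock list.

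The diet effect in WT was set against that in EKO, whose 8 arrays share no array with the WT comparison. The effects differed for 96 genes (0.482% of all; limma interaction test, n = 14 arrays), 67 of the 636 that rose in WT and 27 of the 458 that fell. Since the test contains the WT contrast, those shares are partly built in. The 636 genes had a median diet effect in EKO of 0.05 (log2) and the 458 genes -0.11, and 436 and 358 of them had the sign they had in WT. Over all genes the median in EKO was 0.007, and 0 genes passed by limma for diet in EKO. By group, the difference passed for 4 of 23 lipid-associated macrophage genes, 2 of 22 genes of the inhibitory receptor list, 2 of 33 glutathione genes and 1 of 29 genes of dividing cells. By limma it passed for none of 17 cholesterol synthesis, 19 mesothelial and 20 branched-chain genes. At an unadjusted p under 0.05 there were 12, 15 and 10, beside 2162 of all 19937 genes. These lists hold genes that passed in WT, so these counts too are partly built in. The median diet effects in EKO of the 3 lists were -0.04, -0.006 and -0.02. Mrc2 had an EKO diet effect of -0.14 ± 0.11 (difference between genotypes 2.03 ± 0.16, adjusted p = 4.53e-05), Tfr2 0.13 ± 0.10 (difference between genotypes 1.98 ± 0.15, adjusted p = 4.53e-05) and Gsta4 -0.075 ± 0.16 (difference between genotypes -1.31 ± 0.24, adjusted p = 0.0255). Scd2 had 0.78 ± 0.31 in EKO, and its difference did not pass (difference between genotypes 1.13 ± 0.48, adjusted p = 0.393). The difference of Gsta4 did not pass without normal array 2, normal array 3, Western array 2 or Western array 3 (adjusted p up to 0.0812), while those of Mrc2 and Tfr2 passed with any 1 WT array left out. The count of genes with a difference was 37 without normal array 2, 45 without normal array 3, 499 without Western array 1, 40 without Western array 2 and 38 without Western array 3.

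**Figure D5:**
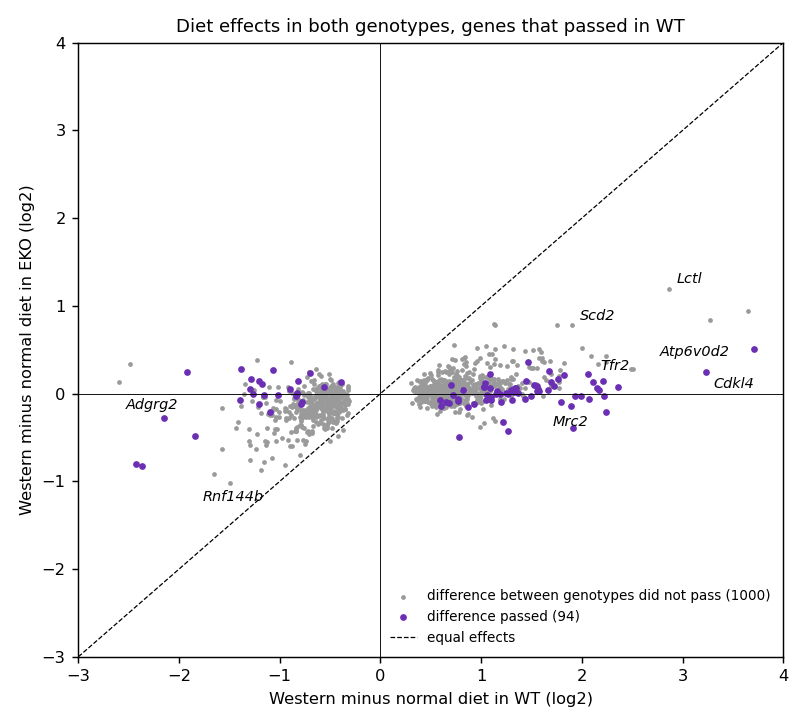
Each point is 1 of the 1094 genes that passed in WT, with its diet log2 fold change in WT on the horizontal and in EKO on the vertical axis; the dashed line marks equal effects. The genes were chosen by the WT values, and the 94 whose effects differed by the interaction test are purple.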

How the data were processed

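The deposited table holds log2 values for each probe set on each array. RMA produced them, per the submitters' processing notes, with settings not given in the sources. RMA is meant to bring arrays to a like brightness, which can hide a shift common to the majority of genes. The deposited arrays still differed, with medians over all rows from 7.92 to 8.10. Of 34760 rows the platform annotation pairs 21640 with 1 gene symbol; for genes with several probe sets the one with the highest mean over the 14 arrays was kept, which left 19937 genes. Values were not rescaled. With limma 3.58.1 (R 4.3.3; lmFit, then eBayes), the 14 arrays entered 1 model with a mean per group and 10 residual degrees of freedom, with contrasts of Western against normal diet in WT, the same in EKO, and their difference. The threshold for passing was a two-sided adjusted p under 0.05 (Benjamini-Hochberg over all genes); ± gives the standard error of a log2 fold change. The script was tested on simulated data. A group mean at or below 6.838, the highest background of any array, counts as background, and a rise from it is a lower bound, taken against the mean over arrays of the higher of that level and the array's own value. The members, the 65 gene lists and the naming rule were chosen with earlier results of these data known, so counts describe the lists and no list was tested. Named were fixed anchor genes, the 30 largest rises and falls among genes that passed without overlap of the diets (predicted genes, small RNAs and chemosensory receptors passed over), up to 4 of each direction per list, the 2 with the smallest p where none passed, and members described by their role. Promoters are RefSeq's (GRCm38.p6), as is every coordinate. Figures used matplotlib 3.10.9. Alternatives covered scaling, filters, probe sets, array weights, background and left-out arrays.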

Additional observations from a re-analysis of the deposited data

Results flagged for a closer look

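The diet effect differed between WT and EKO by the limma interaction test for 96 genes, 42 of which are named in the report; values are the WT effect minus the EKO effect (log2). Among genes of receptors and adaptors of immune cells, the diet effect was more positive in WT for Itgax (2.09), Il7r (2.25), Stap1 (2.13), Tlr13 (2.13), Slamf7 (1.51), Clec4a2 (1.35), Havcr2 (0.61), Ms4a6c (1.12) and Tnip3 (2.02). Among genes of lysosomal proteins, proteases and a protease inhibitor, the diet effect was more positive in WT for Atp6v0d2 (3.20), Ctsk (1.54), Ifi30 (1.29), Gla (0.83), Lipa (0.87), Adam8 (1.63) and Timp1 (1.97). Among genes of cell division and DNA replication, the diet effect was more positive in WT for Mki67 (1.30) and Rrm2 (1.02). Among genes of the other receptors and membrane proteins, the diet effect was more positive in WT for Tfr2 (1.98), Mrc2 (2.03), Tm4sf19 (2.07), Oxtr (2.30), Gpr50 (2.28) and Otop1 (1.43). The same held for Cdkl4 (2.98), Saa3 (2.44), Glipr1 (1.89), Ncan (1.84) and Rnf128 (1.61). The effect was more negative in WT for Ces1f (-2.17), Adgrg2 (-1.87), Pck1 (-1.66), Dennd2d (-1.62), Chst1 (-1.45), Agt (-1.36), Ces1d (-1.34), Eci3 (-1.34), Gsta4 (-1.31), B3galt2 (-1.25), Dtna (-1.09), Gstt1 (-0.89) and Asns (-0.82). Their adjusted p ran from 4.53e-05 to 0.0497 (n = 14 arrays). With each of the 6 WT arrays left out in turn, 16 of the 42 passed every time. For Cdkl4 and Stap1 the WT mean on normal diet and at least 1 EKO mean lay at the background, so these values are not exact.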

How the results depend on the processing

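Counts are given as genes higher, genes lower and genes whose diet effect differed between genotypes (636, 458 and 96 as reported). They were 2655, 2569 and 2338 with array weights, 918, 817 and 285 after quantile normalization of the deposited values, 573, 247 and 65 with arrays centred on their medians, 1063, 944 and 320 with a block for the background split, 1322, 830 and 566 with only the arrays of lower background and 1083, 993 and 342 with the background level as a covariate. Fitted on only the 6 WT arrays, 292 genes were higher and 187 lower, with fewer arrays behind the estimate of the spread. Leaving out each WT array in turn gave 252 to 1063 higher, 163 to 556 lower and 37 to 499 differing. With the mean of all probe sets, without the dimmest 25% or 50% of genes, and with a trended robust prior, all 3 counts stayed within 1.5 times. By list, for counts of 4 or more that moved by over 1.5 times (reported count in brackets), the fit on only the 6 WT arrays gave rises of 4 for cholesterol synthesis (8), 2 for monocyte and dendritic cell genes (4), 2 for vacuolar proton pump (5), 2 for phagocyte oxidase and nitric oxide (6), 4 for dividing cells (19), 0 for DNA replication (6) and 3 for matrix proteases and inhibitors (5) and falls of 2 for adipocyte identity (5), 2 for adipogenic transcription factors (5), 2 for insulin receptor signalling (5), 3 for branched-chain amino acid breakdown (7), 1 for TGF-beta superfamily (4) and 7 for mesothelial genes (13). The arrays of lower background gave rises of 15 for cholesterol synthesis (8), 7 for complement components and receptors (4), 11 for lysosomal hydrolases and membrane proteins (5), 3 for phagocyte oxidase and nitric oxide (6) and 10 for DNA replication (6). The cause of these moves was not tested. Same-numbered WT arrays of both diets had deviations from their group means that correlated at 0.458, 0.187 and 0.00889, and differently numbered ones at -0.459 to 0.382. The numbers were not taken as pairs in the reported fit. With the replicate block the counts were 587, 340 and 60, and 199 of 214 genes that passed, and that the naming rule or the text picks out, still did. Of these 214, 119 passed whichever WT array was left out, 204 passed in the arrays of lower background, and 214 had the same sign in every alternative run. The sign of the diet effect turned only in genes that did not pass: Apoe (0.047 with median centring and -0.14 to 0.12 without 1 WT array), Arg1 (-0.0070 in the arrays of lower background), Cd36 (0.036 with median centring and -0.10 to 0.050 without 1 WT array), Fasn (-0.012 after quantile normalization and -0.069 to 0.12 without 1 WT array), Il6 (0.020 with median centring and -0.074 to 0.0017 without 1 WT array), Lpl (0.045 with median centring, 0.033 with array weights, 0.025 in the arrays of lower background and -0.031 to 0.020 without 1 WT array), Pecam1 (-0.16 to 0.0056 without 1 WT array), Pparg (0.053 with array weights), Srebf2 (0.10 with array weights and -0.20 to 0.11 without 1 WT array), Tfrc (0.30 with array weights, 0.11 in the arrays of lower background and -0.31 to 0.15 without 1 WT array) and Tlr4 (-0.064 to 0.20 without 1 WT array). Genes near the background have compressed changes, and the number of arrays limits the precision.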
